A study of Sus scrofa with 8 samples.

Results

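The creatine kinases CKM, CKB and CKMT2, the adenylate kinase AK1 and the AMP deaminase AMPD1 were followed in pig skeletal muscle under a high energy and a low energy diet. Their spots were found by symbol: a spot was taken when the platform annotation gave it exactly 1 gene symbol and that symbol was 1 of these 5. This gave 30 of the 9984 spots, 22 for CKM and 2 for each of the other 4 genes. No measured value entered this choice of spots, although the 5 genes were chosen with earlier results of these data known. All 22 CKM spots carry the same human transcript in the annotation, and they lie on the array as 11 pairs of neighbouring spots. The labels and the annotation do not say whether the 11 pairs carry the same or different stretches of CKM.

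Contracting muscle spends ATP faster than it can be made, and a set of near-equilibrium enzymes holds its level steady. Creatine kinase moves the phosphate of phosphocreatine onto ADP; CKM is the muscle cytosolic form, CKB the cytosolic form best known from brain and smooth muscle, and CKMT2 the form of muscle mitochondria, where phosphocreatine is made from newly produced ATP. AK1, the cytosolic adenylate kinase, turns a pair of ADP into ATP and AMP, and AMPD1, the muscle AMP deaminase, removes that AMP as IMP and so begins the purine nucleotide cycle.

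The data are 8 arrays with 2 colours, on each of which muscle cDNA of a high energy sample competed with that of a low energy sample. Per the labels they form 4 couples, each hybridised with both dye orientations. Couple 1 set high energy sample 40 against low energy sample 49, couple 2 set 41 against 61, couple 3 set 40 again against 142, and couple 4 set ae against be, letters that are not explained. The labels give no breed, age, sex, muscle or diet composition, and do not say whether a sample was 1 animal or a pool. The p-values therefore apply to these couples: they weigh the mean ratio against the spread between couples, and part of that spread may be technical.

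The arrays of a couple were averaged, which left 4 replicates. Couples 1 and 3 are not independent, since high energy sample 40 entered both. Values were present for 77.6% to 94.4% of spots per array. A positive log2 ratio is read as higher in high energy muscle. This direction is likely but not stated: every label has high energy in channel 2, and low energy is named as the reference. If the ratios were instead formed as dye 5 over dye 3, the value of a gene would be its turned value. This is the ratio with high energy in dye 5 minus the ratio with high energy in dye 3, divided by 2. Below, dye 5 over dye 3 is called the other reading. With dye 3 over dye 5 every turned value would change sign, and its counts above and below 0 would change places. Were low energy the numerator, every ratio of the likely reading would change sign. The turned value is also the dye effect under the likely reading. Over all tested features the median size was 0.090 for the ratio and 0.092 for the turned value. These sizes do not settle the direction. With the 8 arrays fitted singly, the correlation within couples was estimated at -0.036, so arrays of a couple were no more alike than others. Statements that a gene lay above or below 0 hold for the likely reading: in the other one 0 of the 5 members had a single sign in all 4 couples or on all 8 arrays. A log ratio holds no level, so the tissue label could not be checked. All 10 skeletal muscle markers sought had a tested value, but so did every spotted marker of the other cell types. In whole muscle, fewer cells of a type and less RNA per cell cannot be told apart.

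None of the 5 genes differed between the diets in limma's test across all features. CKM stayed slightly above 0 on all 8 arrays and AMPD1 below 0 on all 8, while CKB lay near 0 and AK1 had no common sign. Of 5025 features tested, 0 passed a Benjamini-Hochberg threshold of 0.05, a background of 0%, and 0 of the 5 members did. The adjusted p was 0.996 for each member in limma. Before adjustment, 190 features had a p under 0.05, 3.78% of those tested, and 0 of the 5 members had one.

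CKM, which carries most of the creatine kinase activity of skeletal muscle, had the smallest spread. Averaged over its spots, its log2 ratio with high energy in dye 5 was 0.081, 0.083, 0.049 and 0.16 in couples 1 to 4. With high energy in dye 3 it was 0.13, 0.091, 0.027 and 0.031. No array lay at or below 0, and the highest array, couple 4 in dye 5, was 0.16. The couples averaged 0.081 ± 0.030 (SD, n = 4). The fitted ratio was 0.083 ± 0.080 (limma SE), a fold of 1.06 with a 95% interval of 0.922 to 1.22. The SE is wider than the spread of CKM alone because limma draws on the spread of all features and treats couples 1 and 3 as correlated. The exact sign-flip permutation test over 4 couples, two-sided, gave p = 0.125, the smallest value that 4 couples allow. That test treats the couples as independent. With couples 1 and 3, which share a high energy sample, flipped together, a test added after seeing the data, the exact permutation p was 0.25, the smallest that 3 high energy samples allow. The turned value was 0.016, so the 2 orientations differed by little on average over the couples. They lay farthest apart in couple 4, at 0.16 and 0.031.

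Of the 5 members, 1 was above 0 in all 4 couples (CKM), against 7.47% of the 3640 features tested in all 4 couples. Above 0 on all 8 arrays were 0.797% of those features, 29 in number, CKM among them. CKM averages 22 spots where most features average 2 or fewer, and averaging narrows the scatter between arrays. Of the 8 other genes with at least 10 spots, 1 kept a single sign on all 8 arrays, the slow troponin TNNT1, which was below 0.

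CKB, the brain-type subunit, lay close to 0. Its log2 ratios with high energy in dye 5 were 0.21, 0.016, -0.070 and -0.17 in couples 1 to 4, and with high energy in dye 3 they were -0.10, 0.018, 0.070 and 0.0050. The sign differed between the orientations in couples 1, 3 and 4. The fitted ratio was -0.0085 ± 0.082 (turned -0.0088), a fold of 0.994 with a 95% interval of 0.862 to 1.15. Its 2 spots parted most in couple 4: with high energy in dye 3 they read -0.66 and 0.67 on the same array. The near-zero value of that array is the mean of these opposite readings. The fitted ratio was -0.022 without couple 1, -0.019 without couple 2, -0.0034 without couple 3 and 0.023 without couple 4, so its sign rests on couple 4.

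CKMT2, the mitochondrial form, was below 0 in all 4 couples. Its ratios with high energy in dye 5 were 0.029, 0.084, -0.072 and -0.27, and with high energy in dye 3 they were -0.096, -0.096, 0.017 and -0.15. On 3 of 8 arrays it lay above 0. The fitted ratio was -0.078 ± 0.087 (turned 0.013), a fold of 0.948 with a 95% interval of 0.814 to 1.10. Couple 4 carried most of this, at -0.21, while couples 1 to 3 lay between -0.034 and -0.0059, and without couple 4 the fitted ratio was -0.020. Within couple 4 it was 1 of the 2 spots that was low, at -0.40, against -0.028 for the other.

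AK1, which regenerates ATP from ADP, divided the couples. Its ratios with high energy in dye 5 were -0.25, 0.25, -0.064 and -0.33, and with high energy in dye 3 they were -0.034, 0.22, 0.26 and 0.21. Couple 1 was below 0 and couple 2 above 0 in both orientations, while the orientations of couples 3 and 4 had opposite signs. The fitted ratio was 0.044 ± 0.11, a fold of 1.03 with a 95% interval of 0.851 to 1.25. Its turned value, -0.13 ± 0.093, was larger in size than its diet ratio. It did not pass either (adjusted p = 0.998 in limma). The diet ratio without couple 2 was -0.038 and without couple 3 it was 0.011, whereas without couple 1 it was 0.091 and without couple 4 it was 0.087. The spots of AK1 differed on average by 0.50 on an array and had the same sign on 3 of 8 arrays.

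AMPD1, the deaminase, had the largest ratio of the 5 in size. With high energy in dye 5 it was -0.14, -0.054, -1.02 and -0.061 in couples 1 to 4, and with high energy in dye 3 it was -0.16, -0.25, -0.70 and -0.086. Averaged over the 2 spots all 8 arrays lay below 0, but the arrays of couple 3 stood far below the other 6. The 2 spots had the same sign on 4 of 8 arrays, and of their 16 values 12 were below 0 and 3 above. The fitted ratio was -0.27 ± 0.20 (turned 0.0026), a fold of 0.83 with a 95% interval of 0.586 to 1.18, and the exact sign-flip p was 0.125, or 0.25 with couples 1 and 3 flipped together. Without couple 3 the ratio was -0.12. Below 0 on all 8 arrays were 1.46% of features, and below 0 in all 4 couples were 9.12%, among them 2 of the 5 members, AMPD1 and CKMT2.

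The low value of couple 3 appeared on both of its arrays, whereas the 2 spots of AMPD1 did not follow each other closely. On those arrays the first spot read -1.18 and -1.26, and the second -0.86 and -0.14. AMPD1 was also the member with the lowest recovered signal. Most deposited values are, to their last digit, the log2 of a fraction of small integers. The larger integer of such a fraction bounds the spot's brightness from below and is called the recovered signal. For AMPD1 all 16 values were such fractions, with a median recovered signal of 488, and for AK1 all 16, with a median of 753, against array medians of 187 to 607. The AMPD1 median thus lay within the range of the array medians and that of AK1 above it. The part of signal level in the AMPD1 and AK1 values was not tested.

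**Figure D1:**
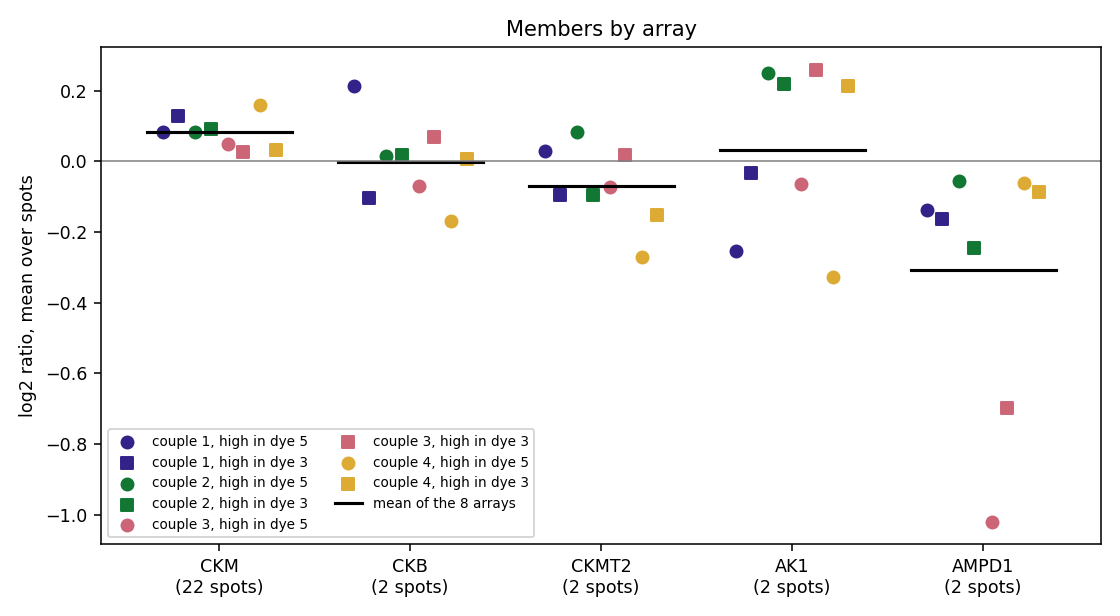
Log2 ratio (vertical axis, high over low energy in the likely reading) of each gene on the 8 arrays, averaged over its spots. Colours are couples, circles have high energy in dye 5, squares have it in dye 3, and lines are means of the 8 arrays. CKM spans 0.027 to 0.16, all above 0, and the 2 arrays of couple 3 hold the lowest AMPD1 values, -1.02 and -0.70.

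Differences between the members were formed within each couple, so that the same RNAs entered both sides. All 10 pairs of members were compared with the exact sign-flip permutation test, two-sided, in which 4 couples cannot go below 0.125. CKM exceeded CKMT2 by 0.15 ± 0.11 (SD, n = 4 couples), CKB by 0.084 ± 0.063 and AMPD1 by 0.39 ± 0.34, in 4 of 4 couples each (exact p = 0.125, adjusted over the 10 pairs 0.25). CKB exceeded CKMT2 by 0.067 ± 0.052 in 4 of 4 couples, and AK1 exceeded AMPD1 by 0.34 ± 0.45 in 4 of 4, with the same exact p of 0.125. With couples 1 and 3 flipped together the exact p of these 5 differences was 0.25, adjusted 0.417. In the other reading of the ratios, CKM minus CKB was 0.012 ± 0.14, CKM minus CKMT2 was 0.000038 ± 0.11 and CKM minus AMPD1 was 0.022 ± 0.12, above 0 in 2 of 4 couples each. CKB minus CKMT2 turned to -0.012 ± 0.078 and AK1 minus AMPD1 to -0.12 ± 0.12. Of the other 5 pairs, none kept 1 sign in all couples in the likely reading, although CKMT2 minus AK1 was 0.14 ± 0.060 and above 0 in 4 of 4 couples in the other. In the likely reading CKM and AK1 differed by 0.049 ± 0.18. With adjusted values of 0.25 and above, none of the 10 differences passed.

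The 22 spots of CKM show how far readings of a single gene scatter on these arrays. The spots gave 168 of 176 possible values, 112 above 0 and 54 below, against 86 above and 80 below in the other reading. Between spots on the same array the SD was 0.34 on average, from 0.20 for couple 3 with high energy in dye 5 to 0.53 for couple 3 with it in dye 3. Averaged within couples, spots still had an SD of 0.27, against an SD of 0.030 between couples for the gene's mean. The spots share the RNA of their array and are no replicates of the diet.

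**Figure D2:**
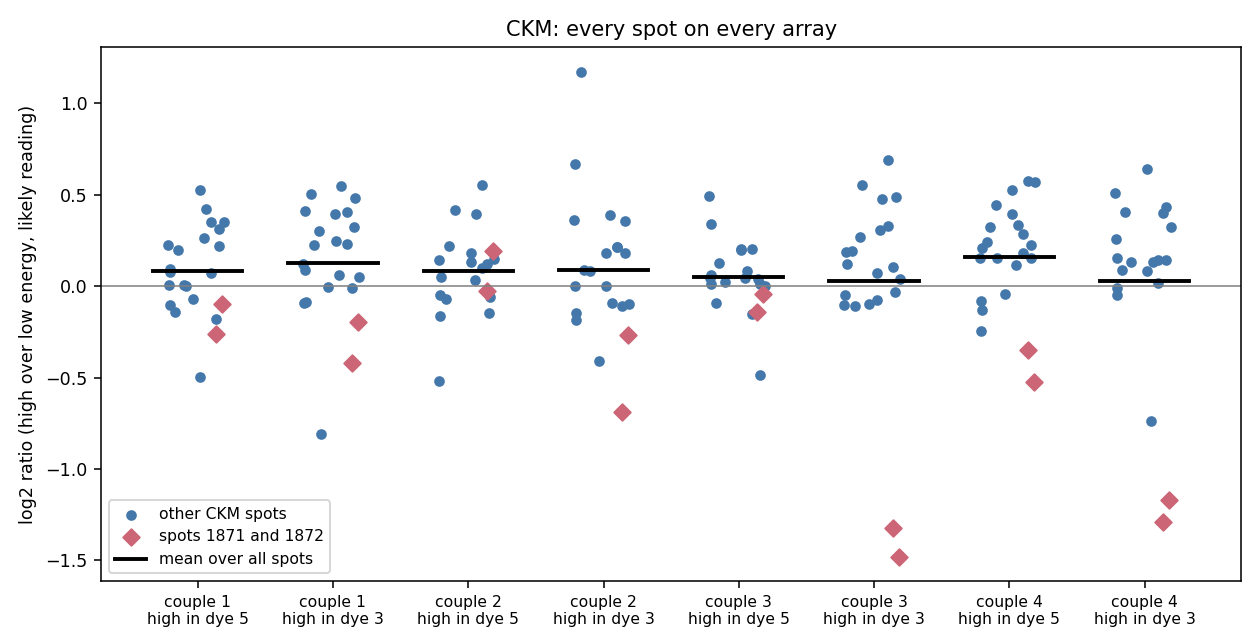
Log2 ratio (vertical axis) of each CKM spot on each of the 8 arrays, with black lines for the mean over all spots. Single spots run from -1.48 to 1.17 while the means stay between 0.027 and 0.16, and diamonds mark spots 1871 and 1872, which reach their lowest values with high energy in dye 3 in couples 3 and 4.

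Of the 11 pairs of neighbouring CKM spots, 9 had a mean above 0 in the likely reading, and 6 in the other. The highest was the pair of spots 3 and 4, with 0.32, 0.20, 0.21 and 0.26 in couples 1 to 4 and a mean of 0.25. Spots 4227 and 4228 had a mean of 0.24 and spots 4111 and 4112 of 0.19. Spots 1347 and 1348 stood at 0.0084, between -0.024 and 0.046 in the 4 couples. The median of the 11 pairs was 0.14, which lies above the mean over all spots.

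The pair of spots 1871 and 1872 went the other way. It read -0.24, -0.20, -0.75 and -0.83 in couples 1 to 4, a mean of -0.50, and 15 of its 16 values were below 0. Its values depended on dye orientation: they averaged -0.16 with high energy in dye 5 and -0.85 with high energy in dye 3, so that its turned value was 0.35, the highest of the 11 pairs. The 2 spots were alike here, at -1.32 and -1.48 on the dye 3 array of couple 3, and at -1.29 and -1.17 on that of couple 4. Its median recovered signal was 1747, above the median of every array. This pair was singled out after its values were seen, so they are a description, and which sequence it carries was not analysed here. The second pair below 0, spots 4239 and 4240, had 9 of 16 values and both orientations in couple 1 alone, at -0.22.

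Leaving spots 1871 and 1872 out raised the fitted CKM ratio to 0.15, and all 8 arrays were above 0, from 0.065 to 0.22. With high energy in dye 3 the 4 couples then read 0.17, 0.15, 0.18 and 0.17, and with high energy in dye 5 they read 0.11, 0.083, 0.065 and 0.22. The SD between spots on an array fell to 0.26 on average. Taking each spot as a feature of its own gave a median CKM spot ratio of 0.15.

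**Figure D3:**
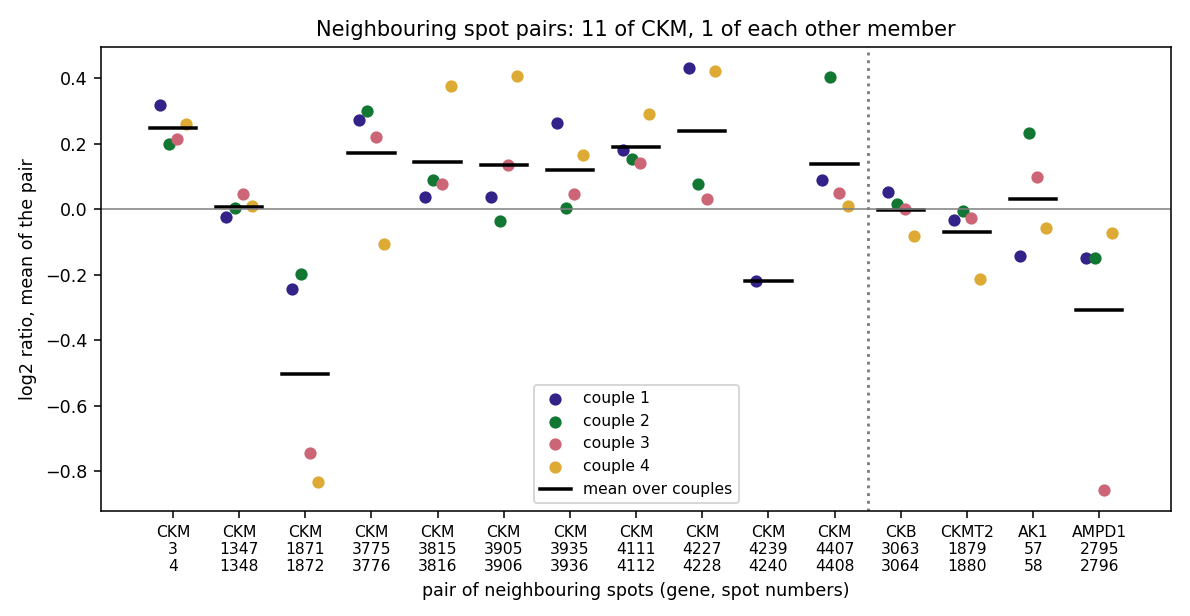
Mean log2 ratio (vertical axis) of each pair of neighbouring spots in couples 1 to 4 (coloured points), with black lines for the mean over couples. The 11 CKM pairs run from -0.50 for spots 1871 and 1872 to 0.25 for spots 3 and 4, and the means of the single pairs of CKB, CKMT2, AK1 and AMPD1 all lie within that range. Without spots 1871 and 1872 the lowest CKM pair is at -0.22, and AMPD1, at -0.31, lies below it.

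Neighbouring CKM spots differed on average by 0.25 on an array. Other CKM spots differed by 0.37, or by 0.30 once spots 1871 and 1872 were left out. Over the 8 arrays, neighbouring spots correlated at a mean Pearson r of 0.24 (9 pairs measured on all arrays) and other CKM spots at -0.0042 (162 pairs), a description of points that share arrays. Array by array, then, the CKM spots scarcely moved together. Averaged over couples 17 of the 22 spots lay above 0, but only 4 spots kept a single sign on every array on which they had a value. The SD between the 11 pair means was 0.23, and 0.14 without spots 1871 and 1872. Both SDs include spots 4239 and 4240, at -0.22, a mean that rests on couple 1 alone. An SD without that pair was not computed. The means over couples of CKB, CKMT2 and AK1, each from a single pair, were -0.0026, -0.070 and 0.033, smaller in size than both SDs. That of AMPD1, at -0.31, was larger than both, while its fitted ratio without couple 3, -0.12, was smaller.

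CKM was compared with the 8 other genes that have at least 10 spots, TTN, TPM2, TNNT1, MYL3, TNNT3, MYH7, TNNI2 and HSPB1. The SD between spots on an array was 0.28 to 0.47 in these genes, and 6 of the 8 exceeded the 0.34 of CKM. The range between the lowest and the highest pair was 0.75 for CKM and 0.36 to 0.67 for the others (in the other reading 0.58, against 0.17 to 0.51). A range tends to widen with the number of pairs, which was 11 for CKM and 5 to 11 for the others. Without spots 1871 and 1872 the lowest CKM pair stood at -0.22. TTN, the spring of the sarcomere, also has 11 pairs: 1 was above 0, and the lowest stood at -0.59. In the other reading 7 of the 11 TTN pairs were above 0. The difference in range between the genes was not tested.

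**Figure D4:**
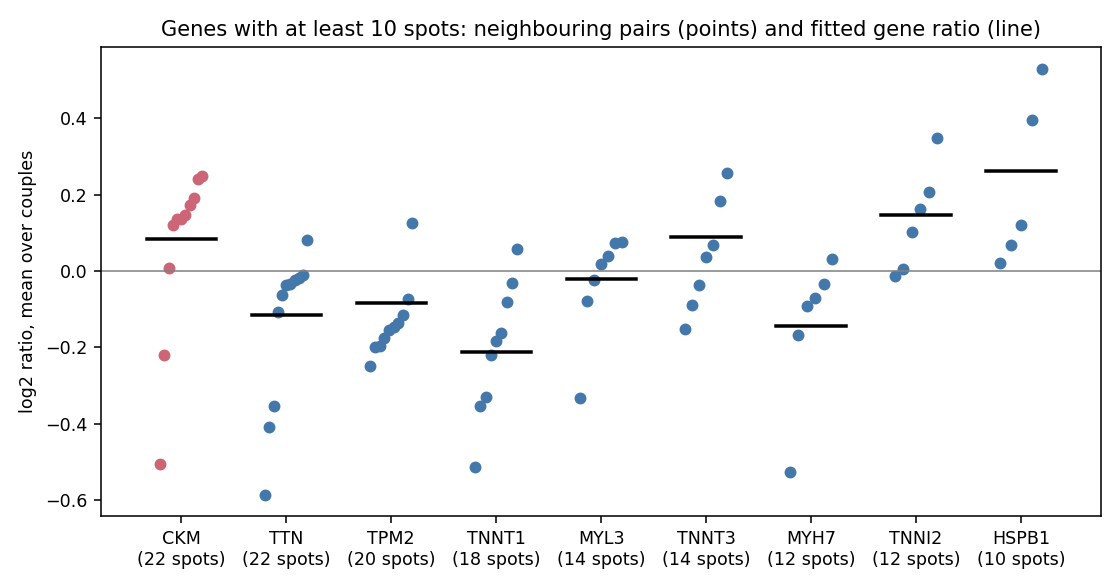
Mean log2 ratio over couples (vertical axis) of each neighbouring spot pair (points) for the 9 genes with at least 10 spots, with black lines for the fitted gene ratio. CKM (red) has 9 of 11 pairs above 0 and 1 at -0.50, and TTN has 1 of 11 above 0. In the other reading, not plotted, 6 CKM pairs and 7 TTN pairs are above 0.

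The genes around these enzymes showed no common shift. Of 56 symbols sought for creatine supply, other creatine and adenylate kinases, the purine nucleotide cycle, purine salvage, other nucleotide kinases, the energy sensor AMPK and ADP/ATP exchange, older names included, 19 had a spot and 16 were tested. Of these 8 were above 0 and 8 below, with a median of -0.014 against -0.012 over all features. The turned values also had 8 above 0 and 8 below. Adjusted over all features 0 of 16 passed in limma, and 0 had an unadjusted p under 0.05.

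For creatine supply, GAMT, which makes creatine, had -0.18 ± 0.18 (turned 0.027), and the creatine transporter SLC6A8 had 0.062 ± 0.087 (turned 0.077). In the purine nucleotide cycle that AMPD1 begins, ADSS1, the muscle enzyme of the step after the deaminase, had -0.14 ± 0.11 (turned -0.015) and ADSL, which closes the cycle, had 0.12 ± 0.11 in 3 couples (turned 0.040). No common direction ran along the cycle. In purine salvage, APRT, which returns adenine to AMP, had 0.28 ± 0.18 (turned 0.19), and IMPDH2, which leads IMP toward guanine nucleotides, had -0.029 ± 0.10 (turned 0.050).

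Among nucleotide kinases, NME3 had 0.22 ± 0.14 in 3 couples (turned 0.22) and the guanylate kinase GUK1 had -0.36 ± 0.33 (turned 0.64). The turned value of GUK1 was larger in size than its diet ratio. PRKAG1, a regulatory subunit and the only AMPK subunit sought that had a spot, had -0.15 ± 0.30 (turned -0.21). For passage of ADP and ATP across the mitochondrial membranes, the outer membrane channels VDAC1 and VDAC3 had 0.25 ± 0.20 (turned -0.29) and -0.13 ± 0.14 (turned -0.22). Of the 4 tested genes of ADP and ATP exchange, which supplies CKMT2 with its substrate, 2 were above 0 and 2 below (turned 1 above and 3 below).

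**Figure D5:**
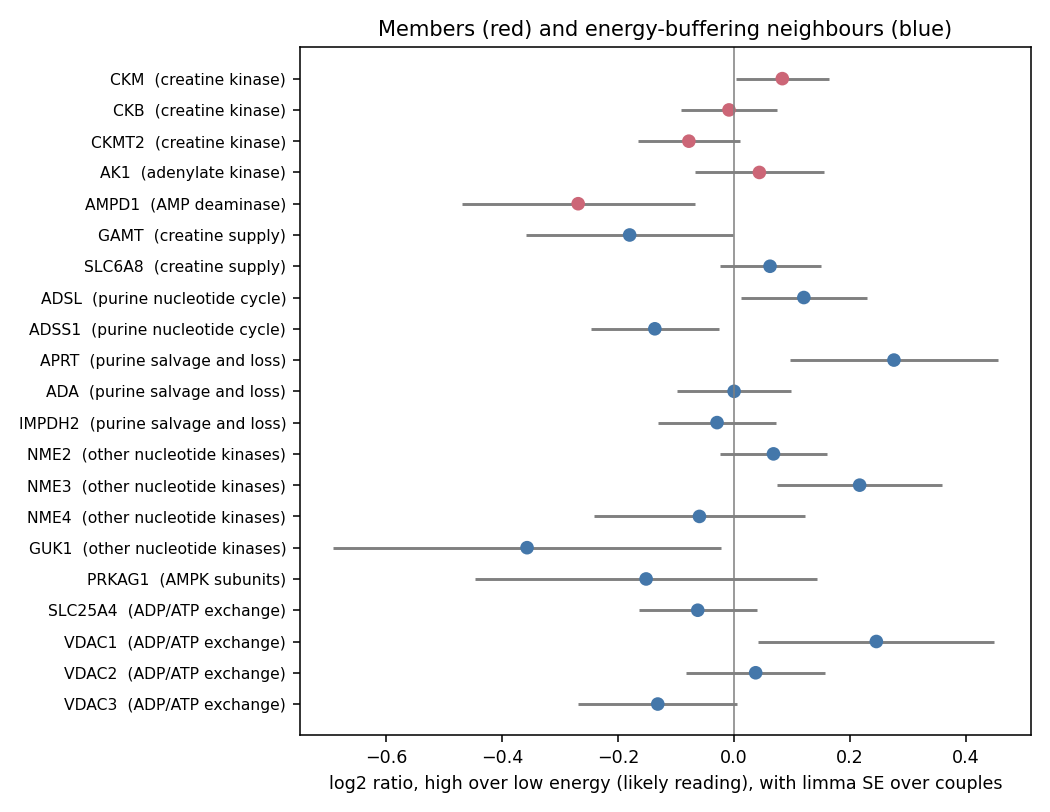
Fitted log2 ratio (horizontal axis, limma SE over couples as bars) of the 5 members (red) and the 16 tested neighbours (blue), with their roles. The neighbours run from -0.36 for GUK1 to 0.28 for APRT on both sides of 0, and the members from -0.27 for AMPD1 to 0.083 for CKM.

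Fast fibres hold more creatine kinase and AMP deaminase activity than slow fibres, so fibre markers are given beside the members. Of 8 tested slow fibre genes 8 were below 0, from -0.32 to -0.014 with a median of -0.11, and of 8 fast fibre genes 4 were above 0, from -0.17 to 0.37 with a median of 0.011, while 46.4% of all features lay above 0. In the other reading 4 of the 8 slow fibre genes were below 0, from -0.13 to 0.24 with a median of -0.0029, and 3 of the 8 fast fibre genes were above 0, with a median of -0.0096, so the common sign of the slow fibre genes rests on the likely direction. In couples 1 to 4 the slow fibre medians were -0.095, -0.095, -0.14 and -0.13, beside CKM at 0.10, 0.087, 0.038 and 0.095 and AMPD1 at -0.15, -0.15, -0.86 and -0.073. For CKB, the 4 tested smooth muscle genes ran from -0.092 to 0.19 (3 above 0; turned -0.32 to -0.15, 0 above 0), and S100B, the only nerve marker tested, had 0.37 ± 0.17 in 3 couples (turned -0.15). The part of fibre or cell type makeup in the members' values was not tested.

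Across the 8 arrays, 1923 other genes were compared with CKM by Pearson's r. The arrays share RNAs in pairs and CKM itself spans only 0.027 to 0.16, so r is a description only. The highest values were those of MYBPC1 at 0.89, LSM8 at 0.88, COX8A at 0.87, DPYSL3 at 0.86 and POLD4 at 0.85. The lowest were TSPYL2 at -0.92, TNIP2 at -0.91, LIMD1 at -0.89, PPP1R7 at -0.89 and LYZ at -0.88. With the sign of the dye 3 arrays turned, POLD4 had 0.90, LSM8 0.54, DPYSL3 0.22, COX8A 0.18 and MYBPC1 -0.59, while the 5 lowest lay between -0.79 and -0.63. MYBPC1, a thick filament protein of slow fibres, followed the array-to-array pattern of CKM in the likely reading only, with a fitted ratio of -0.31. Within the 5 genes, AMPD1 had an r of 0.52 with CKM, CKMT2 -0.48, CKB -0.52 and AK1 -0.62 (turned -0.42, -0.70, -0.27 and -0.10), so neither CKB nor CKMT2 followed CKM from array to array.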

How the data were processed

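Log2 ratios of the 2 channels of each array were deposited by the authors, already centred near 0. Base 2 was read from the values, and how background and normalization were handled, or spots filtered, is not stated by the labels. Per the series' design text, cDNA was labelled with Cy3 and Cy5 and read with a ScanArray LITE scanner. Arrays were centred on their medians. Spots with 1 symbol (6610 of 9984) were averaged per gene, the others kept singly. Features with both orientations in at least 3 couples (5025) were tested with limma 3.58.1 in R 4.3.3 (lmFit, eBayes, two-sided), the high energy sample being a block at an assumed correlation of 0.5, with Benjamini-Hochberg adjustment over all of them. The fit was run on simulated data as a check of the code only. The planted ratios were much larger than those of the members and the simulated correlation was the assumed one. That run therefore does not show how well ratios of the members' size are found. The dye-swapped arrays of a couple count as 1 replicate, which the titles give. Members, gene lists and tests were chosen with earlier results of these data known. Genes named are the 5 members, up to 2 neighbours per role with the smallest p, and the 5 highest and 5 lowest correlations with CKM. Outside that rule, the 8 other genes with at least 10 spots and S100B were named after their values were seen. The symbols are those of the annotation, which gives a human transcript for CKM. The species of the spotted sequences was not checked, and pig transcripts can bind them unequally. All 5 member symbols occur in the pig gene tables. The number of arrays limits the precision. Alternatives were other centring, scaling, spot averaging, signal filters, replicate units and each couple left out.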

Additional observations from a re-analysis of the deposited data

Results flagged for a closer look

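In groups of 4 couples or 4 arrays of the same dye orientation, a value was singled out where its gap to the nearest other made up most of the group's range (Dixon's test at 95%). Of 25 groups tested over the 5 genes and the CKM spot pairs, 5 had such a value, and chance gives about 1 in 20. The groups overlap, since the couple means of a gene average the same arrays as its orientation groups, so the 5 are not independent and both AMPD1 values below rest on couple 3. Couple 3 stood apart for AMPD1, at -0.86 over both orientations, and again among the arrays with high energy in dye 5, at -1.02. Couple 4 stood apart for CKMT2, at -0.21. Couple 1 was the lowest for AK1 among the arrays with high energy in dye 3, at -0.034. In the CKM pair of spots 3815 and 3816, couple 4 was the highest, at 0.38.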

How the results depend on the processing

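In each of 18 alternatives 0 features passed; the smallest adjusted p was 0.0553, in limma's fit of 8 arrays with the couple as replicate block, where the correlation within couples was estimated at -0.036. That fit gave 353 features at an unadjusted p under 0.05, independent couples 310 and the fit over couples as reported 190, and it left the calls of all 5 genes as they were (CKM 0.081, AMPD1 -0.31 with an adjusted p of 0.681), although AMPD1 then had an unadjusted p of 0.0272 and so was among the 353. CKM lay above 0 in 19 of 19 alternatives, from 0.016 to 0.15. Of them, 1 (without spots 1871 and 1872) was chosen after seeing the data. The lowest, 0.016, is the turned value, whose sign depends on the dye taken as numerator, so it says nothing on the sign of the diet ratio. The next lowest, 0.065, came with spots kept from a log2 recovered signal of 9 up. With ratios read as dye 5 over dye 3, CKMT2 turned to 0.013, AK1 to -0.13 and AMPD1 to 0.0026. AK1 was -0.086 with high energy in dye 5 only, and -0.038 to 0.091 with 1 couple left out. CKB was 0.00027 with high energy in dye 3 only, 0.091 with spots kept from a log2 recovered signal of 9 up, and -0.022 to 0.023 with 1 couple left out. The cause was not tested. With that filter AK1 and AMPD1 had too few couples for a value. The SD between CKM spots moved between 0.26 and 0.36. With 4 couples and standard errors of 0.080 to 0.20, the members' 95% intervals reached 0.20 (CKM) to 0.50 (AMPD1) to either side of the ratio. Ratios smaller than that in size cannot be told from 0, even before adjustment over all features.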
